A study of Mus musculus with 14 samples.

Results

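Control embryonic stem (ES) cells with a single working copy of Foxa2 were compared before and after 3 days of endoderm differentiation, using every gene of the RNA-seq tables. The comparison used 5 of the 14 libraries of the series, 2 of the group d0con and 3 of the group d3con, chosen by genotype and day as given in the sample labels. All 5 came from mouse ES cells of the genotype Foxa2-Venus-KO/+, a knock-in/knock-out in which a nuclear Venus reporter takes the place of the Foxa2 coding region on 1 allele. The d0con cells were kept for a day on mitomycin-treated, red-fluorescent embryonic fibroblasts in ES cell medium without the cytokine LIF, and were sorted as Cherry-negative. The d3con cells were grown on Wnt3a-secreting feeder cells with 12 ng/ml Activin A, first in an equal mix of Wnt3a-conditioned and differentiation medium and then in differentiation medium, for which no serum is listed, and were sorted as Venus-positive. The day, the medium, the feeder cells and the sort therefore changed together and cannot be told apart.

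The study used 2 heterozygous clones. Its sample list gives clone C59 for replicates 1 and 3 and clone C63 for replicate 2, so at day 0 each clone had 1 library. Since the Venus-positive sort followed the Foxa2 promoter itself, the level of Foxa2 in d3con was in part set by the gate, and cells of the dish that had not turned on Foxa2 were not measured. In bulk libraries fewer cells of a type and less RNA per cell cannot be told apart. Levels below are in TPM, a share of all transcripts that is corrected for gene length, and are listed in the order replicate 1, replicate 2 for d0con and replicate 1, 2, 3 for d3con. The study calls the libraries of a group biological replicates, of which 2 in d3con share a clone. Fold changes come from counts fitted across all genes with edgeR, and "called", "rose" and "fell" stand for an adjusted p-value under 0.05 together with a change of more than 2-fold.

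Naive ES cells resemble the inner cell mass before implantation and hold a network of factors around Pou5f1, Sox2 and Nanog. On the way to endoderm, cells pass through a formative, epiblast-like stage and a mesendoderm stage resembling the anterior primitive streak, where Nodal and Wnt signals switch on T-box and homeobox factors. Definitive endoderm, the source of gut, liver and pancreas, is marked by Sox17, Foxa2, Gata and Hnf factors, and its anterior part secretes antagonists of Wnt, Nodal and Bmp.

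Library totals ranged from 18233032 to 23731094 expected counts, and 11668 to 12489 genes reached 1 TPM in each library. The reads were 75 bases long in d3con replicate 1 and 50 bases long elsewhere, as the effective gene lengths in the tables show. The d0con libraries correlated with each other at r = 0.986 over log2 CPM of the genes tested. In d3con, replicates 1 and 3 correlated at r = 0.979, whereas replicate 2 correlated with them at 0.950 and 0.959. Replicate 2 was the d3con library nearest to day 0 in 49.1% of the genes that rose and in 47.9% of the genes that fell. There T measured 131 TPM against 11.4 and 15.5 TPM in the other d3con libraries, and Pou5f1 measured 319 against 63.5 and 59.7 TPM.

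**Figure D1:**
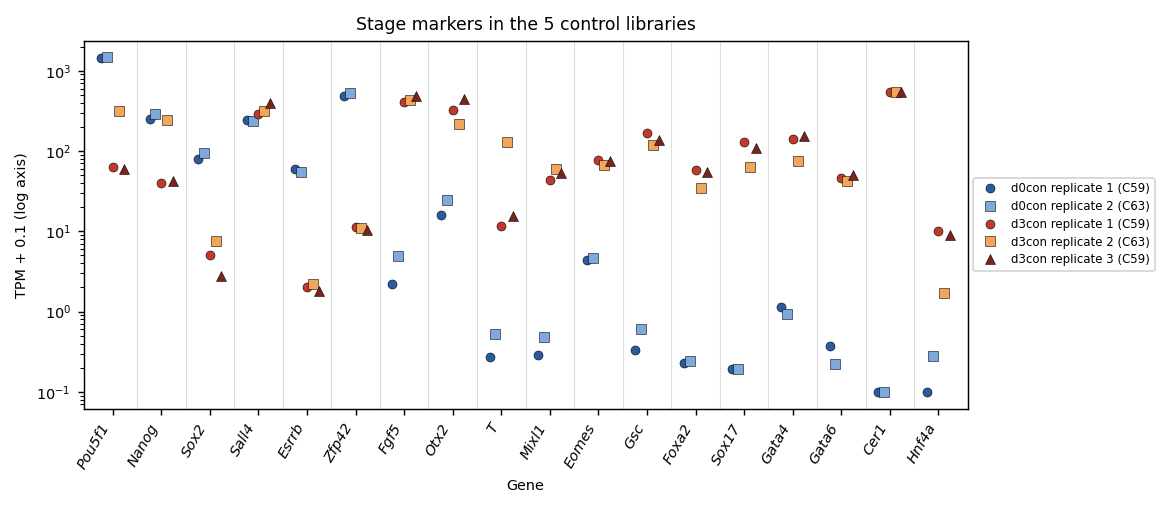
TPM plus 0.1 on a log axis for 18 stage markers in the 5 libraries, with clone in the legend. Naive factors such as Esrrb and Zfp42 were lower in the 3 d3con libraries than in d0con, streak and endoderm factors were higher, and Nanog of d3con replicate 2 (246 TPM) lay close to the d0con libraries (248 and 289 TPM).

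Of 13899 genes tested, 20.6% were called higher in d3con and 14.6% lower, and 33% and 31.5% of these changed more than 8-fold. The median log2 fold change over all genes tested was 0.07. The shares of 20.6% and 14.6% are the background for every list count below. Genes that rose made up 2.48% and 2.66% of all TPM in d0con and 12.3%, 10.3% and 13.4% in d3con. Genes that fell dropped from 18.5% and 18.1% of TPM to 6.06%, 6.83% and 6.46%. Of the genes that rose, 109 went from under 0.5 TPM in both d0con libraries to at least 5 TPM in all 3 d3con libraries, and 41 genes that fell went the other way.

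The naive pluripotency programme fell as a whole. All 19 naive factors on the list fell, where 14.6% of all genes tested did, with a median log2 fold change of -5.03. Dppa5a, an RNA-binding protein of naive cells and the most abundant member, measured 13307 and 11377 TPM in d0con and 536, 400 and 445 TPM in d3con (31.1-fold lower, adjusted p = 0.000736). Esrrb, an orphan nuclear receptor of the naive network, fell from 59.1 and 54.8 TPM to 1.92, 2.09 and 1.69 TPM (log2 fold change -5.11 ± 0.68, SE). Zfp42, the classic marker Rex1, went from 482 and 532 TPM to 11.2, 10.9 and 10.3 TPM. In neither gene did the groups come close to overlapping. Tdh, threonine dehydrogenase, on which mouse ES cells depend for their one-carbon supply, fell from 925 and 1110 TPM to 19.3, 13.8 and 17.6 TPM (adjusted p = 0.000447). Klf5, a zinc finger factor of the same network, fell from 383 and 369 TPM to 109, 59.4 and 105 TPM (adjusted p = 0.0257), and its call was lost without d0con replicate 1 (adjusted p = 0.0844) or 2 (0.0789) and without d3con replicate 2 (0.0722) or 3 (0.0621). Between 17 and 19 of the naive factors fell in the fits without 1 library.

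The core pluripotency factors split. Of 11 tested, 6 fell and 5 did not pass, with a median of -3.53. Pou5f1, which encodes Oct4, fell from 1435 and 1467 TPM to 63.5, 319 and 59.7 TPM (11.5-fold lower, adjusted p = 0.00255). Sox2 fell from 79.4 and 94 TPM to 4.99, 7.42 and 2.71 TPM (19.8-fold lower, adjusted p = 0.00118). Utf1, a chromatin factor of undifferentiated cells, fell 45-fold (adjusted p = 0.000537). Nanog did not pass: it measured 248 and 289 TPM in d0con and 40.2, 246 and 42.5 TPM in d3con (adjusted p = 0.0801, and 0.0107 with the clone as a block), and the 1 high value was in replicate 2, the library that also held the most Pou5f1 and T. Tdgf1, the Nodal co-receptor Cripto, showed the same order of libraries, with 212, 1060 and 381 TPM in d3con. Sall4 and Lin28a also did not pass. Both measured above d0con in all 3 d3con libraries, at 289, 316 and 395 TPM for Sall4 and 119, 111 and 119 TPM for Lin28a. Without d3con replicate 2, 8 core factors were called lower.

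Signalling through LIF, which holds mouse ES cells in the naive state, was measured by 9 genes, of which 2 fell, beside 14.6% of all genes tested. Those were the kinase genes Pim1 and Pim3, and Lifr, Il6st, Jak1, Stat3 and Socs3 did not pass. Below the 2-fold limit, Socs3 was 1.83-fold lower (adjusted p = 0.0437) and Jak1 1.67-fold higher (adjusted p = 0.00505). Pim3 went from 108 and 112 TPM to 38.7, 45.4 and 29.7 TPM (adjusted p = 0.00465). Pim1 went from 30.8 and 18.5 TPM to 7.72, 8.31 and 5.63 TPM (adjusted p = 0.0111, and 0.088 without d0con replicate 1).

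The formative list moved in both directions, with 6 of 15 higher, 5 lower and 4 not passing. Of all genes tested, 20.6% were higher and 14.6% lower. Fgf5, the marker of epiblast-like cells, rose from 2.1 and 4.78 TPM to 403, 435 and 485 TPM (adjusted p = 0.00175), and the 3 d3con libraries differed little. Otx2, a homeobox factor of the epiblast and later of anterior tissue, rose from 15.8 and 24.3 TPM to 323, 216 and 444 TPM (14.3-fold higher). Sox4 rose from 4.28 and 3.56 TPM to 84.8, 86.9 and 59.6 TPM. Among the members that fell, Dnmt3l, the partner of the de novo DNA methyltransferases, went from 752 and 691 TPM to 9.35, 6.16 and 4.98 TPM (adjusted p = 0.000213). The Erk-dependent factor Etv5 went from 344 and 379 TPM to 28.7, 102 and 35.8 TPM. Pou3f1, an early epiblast factor, overlapped between the days, at 12.7 ± 9.08 TPM (SD, n = 2) in d0con and 0.39, 10.2 and 0.13 TPM in d3con.

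Germline and oocyte genes formed the other coherent loss. All 19 of the 22 that could be tested fell, with a median of -5.30, and 16 to 18 of them were called in the fits without 1 library. A gene was tested if it reached 1 CPM in 2 libraries, and several of these did so through day 0. Dazl, Mael, Syce1, Zp3 and Khdc3 had at most 7 counts in any d3con library. The direction of such members was therefore set in part by the filter. Tex19.1 and Ooep passed it in d3con as well, with at least 35 counts in each library. Many of the germline genes are active in mouse ES cells although their products serve meiosis, the egg or defence against transposons. Piwil2, a Piwi protein that guards germ cells against retrotransposons, fell from 20.4 and 18.3 TPM to 1.48, 0.27 and 0.63 TPM (adjusted p = 0.00118). Ooep, a component of the egg's subcortical complex, fell from 161 and 120 TPM to 4.23, 2.98 and 3.67 TPM. Ddx4, the Vasa helicase, fell from 33.6 and 32.6 TPM to 0.86, 1.03 and 0.67 TPM. Syce1, a protein of the synaptonemal complex of meiosis, fell 293-fold, and the egg genes Zp3 and Khdc3 fell to 0.15 TPM or less from 21.6 and 23.4 TPM and from 22.9 and 19.9 TPM. Dazl, an RNA-binding regulator of germ cells, fell from 4.4 and 3.75 TPM to 0.12, 0.19 and 0.19 TPM. Zscan4c and Zscan4d, genes of rare ES cells that resemble the 2-cell embryo, were at 0 counts in all 3 d3con libraries, at least 25.2-fold and 18.7-fold lower than in d0con. The list of such cleavage-stage genes had 4 tested members, of which 3 fell, with a median of -6.79, or -4.44 with genes at 0 set to their bound. The remaining 1, Tcstv3, rose from 0.1 and 0 TPM to 12.3, 4.1 and 9.48 TPM (adjusted p = 0.00218).

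Primitive streak and mesendoderm genes rose in 11 of 15 cases, against a background of 20.6%, with none lower and a median of 4.83. Fgf8, a growth factor of the streak, rose from 0.27 and 0.7 TPM to 501, 702 and 505 TPM (adjusted p = 0.000335). Gsc, a homeobox factor of the anterior streak, rose from 0.23 and 0.51 TPM to 166, 120 and 138 TPM (adjusted p = 0.000284). Mixl1, a homeobox target of Nodal, rose from 0.19 and 0.38 TPM to 44.1, 60 and 52.7 TPM (adjusted p = 0.00015). All 3 genes were far above d0con in every d3con library, and the d3con libraries lay close together. Eomes, the T-box factor upstream of endoderm, was already present at 4.23 and 4.53 TPM and rose to 78.3, 67.3 and 75.8 TPM (14.7-fold higher). T, the T-box factor Brachyury, rose from 0.17 and 0.43 TPM to 11.4, 131 and 15.5 TPM (adjusted p = 0.00964), with replicate 2 far above the others. The call for T was lost without d0con replicate 1 (adjusted p = 0.076) or 2 (0.0597). Wnt8a, a Wnt ligand of the streak, did not pass, and it was high in replicate 2 alone, at 0.86, 29 and 0.32 TPM. Tbx6, a marker of nascent mesoderm, measured 1.21, 4.53 and 2.22 TPM and did not pass either (adjusted p = 0.0599, but 0.0484 with the replicate number and 0.034 with the clone as a block).

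Definitive endoderm genes rose in 17 of 18 cases, with a median of 6.46, and 13 to 17 rose in the fits without 1 library. Sox17, the HMG-box factor that defines this lineage, rose from 0.09 and 0.09 TPM to 131, 62.4 and 110 TPM (log2 fold change 10.02 ± 0.85, SE, adjusted p = 0.00015). Gata4 and Gata6, zinc finger factors of endoderm and heart, rose from 1.05 and 0.83 TPM to 142, 75.9 and 153 TPM and from 0.27 and 0.12 TPM to 46.4, 42.6 and 50.4 TPM. Foxa2, selected by the sort, rose from 0.13 and 0.14 TPM to 58.6, 34.8 and 54.5 TPM. Of its relatives, Foxa1 measured 0.03 and 0 TPM in d0con and 28, 7.72 and 21.1 TPM in d3con (adjusted p = 0.000287), and Foxa3 measured 5.86 and 6.68 TPM in d0con and 64.4, 10.1 and 66.6 TPM in d3con (adjusted p = 0.0177). The call for Foxa3 was lost without d0con replicate 1 (adjusted p = 0.105) or 2 (0.0889), and with the clone as a block (0.0638). Replicate 2 was the lowest of the 3 libraries in all of these factors. Cxcr4, the chemokine receptor used to sort endoderm, rose from 0.15 and 0.05 TPM to 49.6, 28 and 52.8 TPM (adjusted p = 0.00069). Hnf4a, a nuclear receptor of liver and gut, reached 9.91, 1.62 and 9.01 TPM (adjusted p = 0.0137, and 0.087 without d0con replicate 1). Trh, the thyrotropin-releasing hormone gene, had the largest gain in TPM of all genes called, from 618 and 1583 TPM to 4242, 3012 and 4403 TPM (3.06-fold higher, adjusted p = 0.0124, and 0.0815 without d0con replicate 1). Epcam, the epithelial adhesion molecule, was the member that did not pass and stayed between 176 and 202 TPM in all 5 libraries.

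The promoter windows of Foxa1 and Prdm1 are printed because, among the 13 changed endoderm genes with a window in the RefSeq promoter table (250 bases before and 50 after the gene start, build GRCm38.p6), these 2 held the forkhead motif TGTTTAC on either strand. Capitals mark the match. Only the first listed window of each gene was searched, and Foxa2 had 3 windows and Kit, Hnf4a and Pyy 2 each. Such a match stood in 2.42% of the windows of all genes tested and in 2.38% of those of genes that rose. The Foxa1 window is chr12:57546062-57546361, minus strand, and the Prdm1 window is chr10:44458699-44458998, minus strand.
Foxa1: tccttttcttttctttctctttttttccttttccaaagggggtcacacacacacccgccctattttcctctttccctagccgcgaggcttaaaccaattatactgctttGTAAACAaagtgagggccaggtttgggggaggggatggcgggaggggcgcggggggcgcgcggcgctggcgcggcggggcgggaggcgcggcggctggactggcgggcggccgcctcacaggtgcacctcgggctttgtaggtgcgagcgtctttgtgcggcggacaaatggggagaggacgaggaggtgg
Prdm1: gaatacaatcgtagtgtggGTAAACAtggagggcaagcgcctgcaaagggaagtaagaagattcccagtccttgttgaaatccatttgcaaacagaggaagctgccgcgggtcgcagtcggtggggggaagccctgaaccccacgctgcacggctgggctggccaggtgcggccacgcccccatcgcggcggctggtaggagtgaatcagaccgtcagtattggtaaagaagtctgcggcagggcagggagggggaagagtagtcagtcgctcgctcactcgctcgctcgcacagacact
Prdm1, which encodes the repressor Blimp1, was present in ES cells at 4.53 and 5.26 TPM and rose to 20.5, 22.8 and 26 TPM (adjusted p = 0.00019), evenly in the 3 libraries. A match describes letters only.

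Secreted antagonists and factors of the anterior organizer rose in 13 of 15 cases, beside 20.6% of all genes tested, with a median of 4.21. Cer1, an antagonist of Nodal and Bmp, was at 0 TPM in both d0con libraries and at 545, 544 and 548 TPM in d3con. It was at least 6621-fold higher (edgeR adjusted p = 0.00367), but DESeq2 on 10 libraries did not call it. Dkk1, which blocks the Wnt co-receptor, rose from 0.31 and 0.48 TPM to 385, 44.5 and 313 TPM (adjusted p = 0.000777). Frzb, a soluble Wnt-binding protein, measured 0.03 and 0.03 TPM in d0con and 44.1, 38.6 and 57.6 TPM in d3con. Cer1 was thus equal in the 3 d3con libraries while Dkk1 was lowest in replicate 2. Lhx1, a LIM homeobox factor of the head organizer, reached 202, 234 and 254 TPM from 0 and 0.04 TPM, and Lhx1os, the antisense transcript beside it, reached 100, 44.7 and 95.5 TPM from 0. In the gene coordinates used here the pair does not overlap, with Lhx1 at chr11:84517975-84525534 and Lhx1os at chr11:84525660-84535831. Chrd and Nog, both Bmp antagonists, rose to 9.09, 20.1 and 6.9 TPM and to 4.24, 5.92 and 3.57 TPM. The call for Chrd was lost without d0con replicate 2 (adjusted p = 0.0527). Hesx1, a homeobox factor of the anterior head, overlapped between the days at 0.87 and 7.83 TPM against 31, 3.94 and 20.1 TPM (adjusted p = 0.167).

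Genes of other lineages gave a mixed picture, and several stayed near 0. For comparison, 20.6% of all genes tested rose and 14.6% fell. Of 11 tested genes of lateral and cardiac mesoderm 7 rose, but 3 did so without d0con replicate 1 and 4 without d0con replicate 2, d3con replicate 1 or d3con replicate 3. Kdr, the VEGF receptor of early mesoderm, rose from 0.19 and 0.25 TPM to 6.23, 9.28 and 5.49 TPM (adjusted p = 0.00205), and Tbx5, a T-box factor of heart and limb, reached 1.73, 2.35 and 3.13 TPM from 0 (adjusted p = 0.00449). Hand1, a bHLH factor of lateral mesoderm, measured 0.68, 8.16 and 4.17 TPM in d3con and did not pass (adjusted p = 0.217). In paraxial mesoderm 2 of 7 tested genes rose and 1 fell, with a median of 1.92, and without d0con replicate 1 none rose. Foxc1, a forkhead factor of somites, reached 1.56, 1.87 and 0.62 TPM from 0.05 TPM or less, and its call was lost without d0con replicate 1 (adjusted p = 0.0708). Dll3, a Notch ligand family member, measured 3.41 and 3.76 TPM in d0con and 15.5, 52.2 and 19.3 TPM in d3con (adjusted p = 0.046), and its call was lost without d0con replicate 1 (0.183) or 2 (0.165) and without d3con replicate 2 (0.116) or 3 (0.0589). Msgn1 and Ripply2 were at 0 TPM in all 5 libraries, and Tcf15 fell from 217 and 120 TPM to 2.02, 8.87 and 2.5 TPM (adjusted p = 0.000649). Neuroectoderm was almost silent: only Pax6 and Nes of 12 genes could be tested, Sox1 stayed at or below 0.17 TPM, and Pax6 fell from 2.07 and 1.22 TPM to 0.07, 0.04 and 0.06 TPM (adjusted p = 0.00029). Of 15 Hox and Cdx genes of the posterior body only 4 could be tested, of which 2 fell and none rose, with 1 rising without d3con replicate 3. Hoxb1 was high in replicate 2 alone, at 3.49 TPM.

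Node and notochord genes rose in 6 of 9 cases, at low levels, and in 3 cases without d0con replicate 2. Noto, the homeobox factor of the node, reached 1.46, 5.4 and 1.52 TPM from 0, at least 29.8-fold higher. Shh, its secreted signal, reached 0.76, 1.46 and 0.69 TPM from 0. Foxj1, the master factor of motile cilia, did not pass and measured 6.07, 57.5 and 4.38 TPM. Replicate 2 was the highest library in all 3 genes. Beside the list counts of this paragraph, 20.6% of all genes tested rose and 14.6% fell. The markers of extraembryonic endoderm, a lineage that shares Sox17 and Gata factors with definitive endoderm, were mixed: 6 of 13 rose, 1 fell and 6 did not pass. The visceral endoderm genes Afp and Ttr were at 0 to 0.24 TPM in all 5 libraries, and Sox7, which marks extraembryonic rather than definitive endoderm, measured 4.74 and 2.2 TPM in d0con and 2.41, 0.98 and 0.24 TPM in d3con (adjusted p = 0.279). Pdgfra, a receptor found in primitive endoderm and in mesoderm, rose from 0.21 and 0.13 TPM to 9.7, 17 and 25.9 TPM. Lamb1, a laminin chain, rose from 19.8 and 17.3 TPM to 145, 89.2 and 167 TPM. Pth1r rose from 0.62 and 1.26 TPM to 31.7, 11.3 and 32 TPM (adjusted p = 0.00301). Dab2 rose from 0.52 and 0.54 TPM to 8.75, 5.54 and 3.43 TPM (adjusted p = 0.00158). Cubn and Plat rose 9.28-fold and 4.15-fold, to at most 1.38 and 4.47 TPM. Rhox5 was the member that fell. Of 7 tested trophoblast genes 2 rose and 3 fell, and 1 to 3 did each without 1 library. Krt7, a keratin of simple epithelia, rose from 4.63 and 6.78 TPM to 74.4, 66.7 and 77.3 TPM, and Tead4, a factor of the trophoblast programme, fell from 9.64 and 8.98 TPM to 4.48, 4.33 and 4.82 TPM (adjusted p = 0.0014). Cdx2 and Elf5 were too low to test. Of 7 tested endothelial and blood markers 3 rose and 2 fell. Pecam1, an endothelial adhesion molecule that ES cells also hold, fell from 41.1 and 31.2 TPM to 2.27, 1.08 and 2.9 TPM (adjusted p = 0.00257). The globin genes Hbb-bh1 and Hba-x were at 0 TPM throughout, and the blood factors Gata1 and Runx1 rose. Gata1 went from 2.08 and 3.2 TPM to 62.7, 23.2 and 74.6 TPM (17.6-fold higher, adjusted p = 0.00236) and Runx1 from 0.13 and 0.07 TPM to 8.27, 3.81 and 5.98 TPM (adjusted p = 0.000562).

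**Figure D2:**
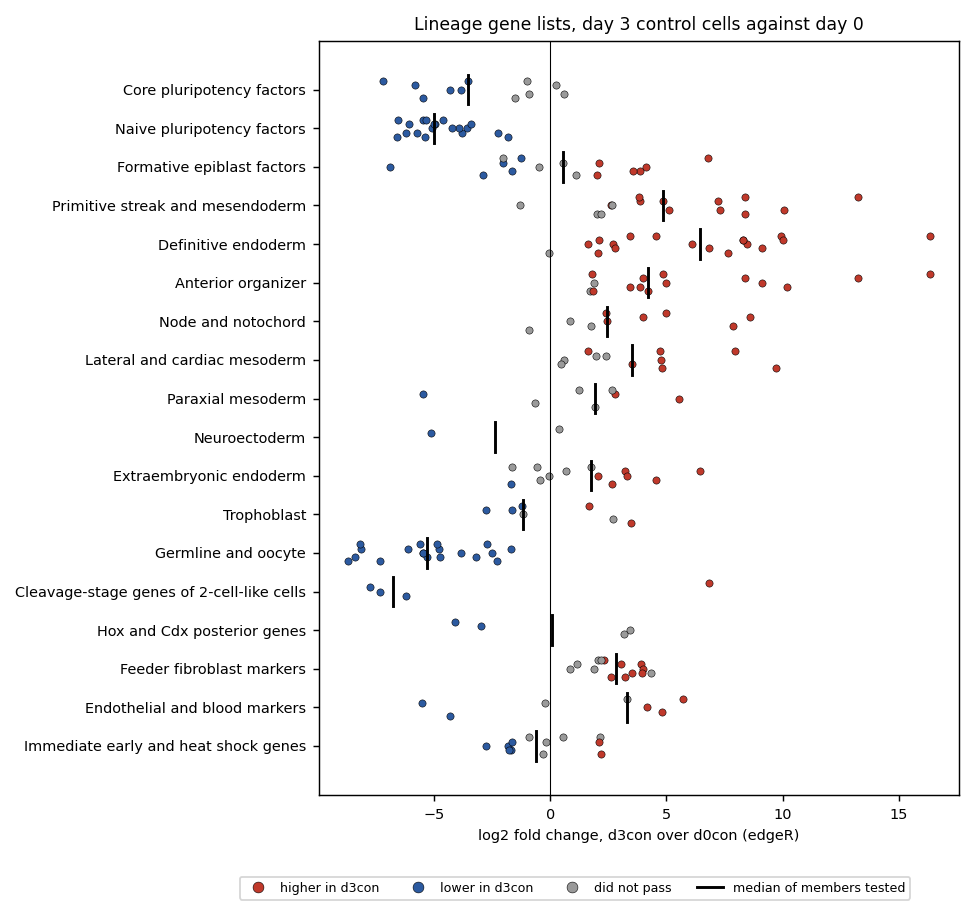
Each point is a tested gene, placed by its log2 fold change in d3con over d0con on the horizontal axis and by its list on the vertical axis, and black bars are list medians. The 19 naive factors and the 19 germline genes lie to the left of 0, and the definitive endoderm genes lie to the right with a median of 6.46, except Epcam near 0.

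Signal components of the Nodal pathway, the branch that Activin A drives, rose in 11 of 23 cases and fell in 4. Of all genes tested, 20.6% rose and 14.6% fell. Nodal, the ligand itself, did not pass, at 97.2 and 59.7 TPM in d0con and 103, 107 and 140 TPM in d3con (adjusted p = 0.164). Gdf3, a related ligand, fell from 184 and 185 TPM to 4.59, 6.69 and 5.08 TPM (39.1-fold lower, adjusted p = 0.000559). The co-receptor genes also diverged, since Cfc1, which encodes Cryptic, rose from 1.13 and 1.35 TPM to 436, 273 and 453 TPM (adjusted p = 0.000781), while its relative Tdgf1 did not pass. Of the downstream factors, Foxh1, which brings Smads to DNA, rose from 104 and 101 TPM to 294, 292 and 350 TPM, and Smad3 rose from 2.35 and 2.43 TPM to 7.06, 10.9 and 8.49 TPM. Smad2 and Smad4 did not pass. The targets Lefty1 and Lefty2, secreted inhibitors of Nodal, rose 3.56-fold and 3.52-fold. The inhibitory Smad7 went the other way, from 25.7 and 26.9 TPM to 7.49, 7.49 and 4.89 TPM (adjusted p = 0.00175). In DESeq2 on the 5 libraries, tested against a 2-fold change, 3 members of the pathway were called higher.

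In the Wnt pathway ligands and inhibitors changed in both directions. Of 20 ligands and receptors 8 rose and 2 fell, beside 20.6% and 14.6% of all genes tested. Wnt3, which is needed for the streak, rose from 0.5 and 1.03 TPM to 22.7, 37.8 and 30.8 TPM (adjusted p = 0.000979), and Wnt11 rose from 0.7 and 0.7 TPM to 39.6, 18.2 and 43.3 TPM (adjusted p = 0.000148), whereas Wnt7b fell from 7.47 and 14.1 TPM to 1.63, 0.14 and 0.73 TPM (adjusted p = 0.00293). Of the Frizzled receptors, Fzd8 rose from 0.94 and 0.55 TPM to 27.5, 21.8 and 25.9 TPM and Fzd2 from 0.93 and 0.88 TPM to 17.7, 25.4 and 12.2 TPM. Wnt3a, which the feeder cells were made to secrete, measured 3.78 and 1.17 TPM in d0con and 18.1, 3.52 and 5.81 TPM in d3con, overlapping between the days. Of 17 targets and feedback genes 9 rose and 2 fell, beside the same shares of all genes tested. The secreted inhibitor Sfrp5 rose from 0.51 and 0.16 TPM to 188, 40.2 and 175 TPM (adjusted p = 0.000589), Sfrp1 rose from 21.6 and 15.3 TPM to 201, 71 and 220 TPM, and the transcription factor Tcf7l2 rose from 7.35 and 6.34 TPM to 82.8, 44.1 and 103 TPM. Axin2, a widely used target gene, did not pass, at 3.99 and 2.7 TPM against 5.39, 8.59 and 5.4 TPM (adjusted p = 0.0961). Notum, an enzyme that inactivates Wnt ligands, fell from 28 and 21.8 TPM to 0.72, 0.14 and 0.52 TPM (60.4-fold lower, adjusted p = 0.000922).

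Fgf ligands also changed in both directions, where 20.6% of all genes tested rose and 14.6% fell. Fgf4, the ES cell ligand, fell from 81.6 and 74.9 TPM to 2.01, 2.22 and 2.19 TPM (42.1-fold lower, adjusted p = 0.000781), Fgf17 fell from 62.5 and 41.9 TPM to 0.92, 7.51 and 0.86 TPM, and Fgf10 rose from 0.32 and 0.51 TPM to 84, 50.2 and 113 TPM (adjusted p = 0.000553) beside Fgf5 and Fgf8. The receptors Fgfr1, Fgfr2, Fgfr3 and Fgfr4 did not pass, with Fgfr1 the most abundant at 34 and 35 TPM against 54.5, 70.4 and 51.1 TPM. Among 11 genes induced by Erk, the kinase below these receptors, 5 fell and 2 rose, and 0 rose without either d0con library. Spry4, an Erk inhibitor, fell from 54.7 and 39.2 TPM to 16.1, 12.6 and 13.9 TPM (adjusted p = 0.000425). The phosphatase gene Dusp6 did not pass and overlapped between the days, with 93.9 and 69.3 TPM against 37.7, 97.9 and 41.1 TPM.

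The Bmp pathway gained in 10 of 17 cases and lost in 3, beside 20.6% and 14.6% of all genes tested. The same shares apply to the Notch and Eph counts of this paragraph. Bmp4 fell from 198 and 147 TPM to 8.3, 9.34 and 4.16 TPM (27.2-fold lower, adjusted p = 0.00028), and Bmp2 rose from 0.05 and 0.05 TPM to 43.5, 28.4 and 29.2 TPM (adjusted p = 0.000543). Smad1, the signal transducer, rose 11.4-fold to 176, 136 and 257 TPM. The targets differed, because Id2 fell from 44.8 and 63.7 TPM to 8.13, 8.46 and 6.29 TPM, Id3 did not pass, and Msx1 rose from 1.05 and 1.28 TPM to 86.4, 45 and 102 TPM. In the Notch pathway 7 of 14 rose and 3 fell, and 4 rose without either d0con library. Its targets Hes1 and Hey1 rose, to 139, 134 and 111 TPM and to 23.3, 23.4 and 34.1 TPM, and so did the receptor Notch3, to 58.1, 85.3 and 80.4 TPM (7.32-fold higher). Rbpj, the DNA-binding partner of Notch, fell from 98.1 and 87.3 TPM to 38.6, 38.6 and 36.6 TPM (adjusted p = 0.000591). In the Hedgehog pathway the target Gli1 fell from 30.2 and 20.1 TPM to 0.99, 1.72 and 1.41 TPM (adjusted p = 0.00029), while the transducer Smo rose from 5.46 and 5.63 TPM to 41.7, 69.3 and 39.4 TPM (adjusted p = 0.00122). Cyp26a1, the enzyme that breaks down retinoic acid, rose from 0.94 and 1.16 TPM to 514, 264 and 440 TPM (adjusted p = 0.00023), and the receptor gene Rarg fell from 213 and 114 TPM to 8.19, 28.3 and 9.73 TPM (adjusted p = 0.000902) while Rarb rose to 10.7, 3.85 and 12.9 TPM. Among Eph receptors and ephrins 8 of 14 rose, with 5 and 4 rising without d0con replicate 1 or 2, led by Efna5 and Epha7, which rose to 15.3, 5.12 and 14.2 TPM and to 15, 16.3 and 18.1 TPM.

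**Figure D3:**
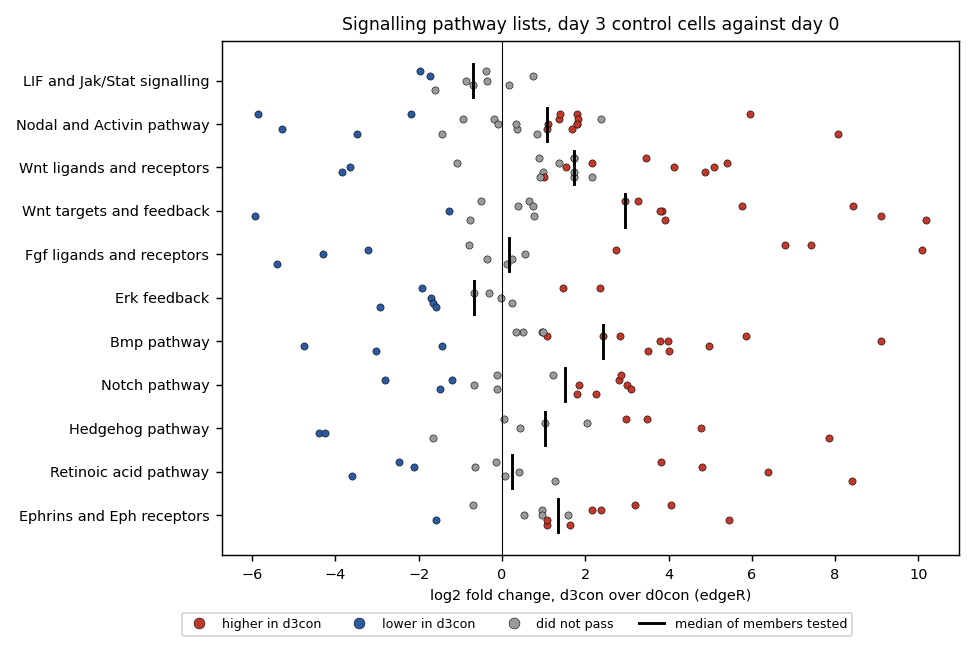
Log2 fold change of each tested pathway gene in d3con over d0con (horizontal axis) by pathway (vertical axis), with black bars at list medians. Members of most pathways lie on both sides of 0, and the rises to the far right include Fgf8, Frzb, Dkk1 and Bmp2.

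N-cadherin rose, and E-cadherin did not pass. Cdh1, the epithelial cadherin, measured 347 and 316 TPM in d0con and 455, 483 and 598 TPM in d3con and did not pass (adjusted p = 0.153). Cdh2 rose from 1.16 and 1.99 TPM to 78.8, 68.3 and 129 TPM (50.5-fold higher, adjusted p = 0.000572). Regulators of the epithelial-to-mesenchymal transition rose only to low levels, with Zeb2 at 1.69, 3.4 and 1.75 TPM and Twist1 at 6.79, 8.54 and 4.43 TPM, and Vim, the mesenchymal intermediate filament, rose from 27.9 and 28.1 TPM to 263, 179 and 167 TPM. Of the 17 genes of this list 8 rose and 2 fell, and 5 rose without either d0con library. The keratins changed in kind. Krt42 fell from 136 and 131 TPM to 0.84, 0.37 and 1.05 TPM (200-fold lower, adjusted p = 0.00042) and Krt17 from 151 and 112 TPM to 1.32, 0.64 and 0.38 TPM (192-fold lower). Krt8 and Krt18, the filament pair of simple epithelia, rose from 60.7 and 91.8 TPM to 1207, 700 and 1188 TPM (11.8-fold) and from 38.7 and 59.8 TPM to 1298, 671 and 1223 TPM (18.8-fold). Krt19 and Krt7 rose with them, and so did the tight junction genes Cldn6, Cldn7 and Ocln, whereas Jup, plakoglobin, fell from 153 and 159 TPM to 43, 35.1 and 55 TPM (adjusted p = 0.00132).

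Markers of fibroblasts, the cell type of the feeders, also rose. Of 15 such markers 14 could be tested and 8 were called higher, beside 20.6% of all genes tested. Their summed level was 21.6 and 26.3 TPM in d0con and 372, 86.1 and 248 TPM in d3con. Col1a1, the main collagen of fibroblasts, measured 6.01 and 7.08 TPM in d0con and 180, 30.3 and 120 TPM in d3con (adjusted p = 0.0073, and 0.0608 and 0.0522 without d0con replicate 1 or 2). Dcn and Postn, further fibroblast genes, did not pass, at 2.6, 0.59 and 5.09 TPM and 1.7, 0.79 and 12.2 TPM in d3con. None of the 15 was at 0 in all d3con libraries. Without d0con replicate 1 or 2 the count was 2 or 3, and it was 10 when d3con replicate 2, the library with the lowest sum, was left out. These values stand beside the basement membrane list, of which 7 of 17 rose and 2 fell. Col4a1, a basement membrane collagen, rose from 3.83 and 3.48 TPM to 120, 74.6 and 122 TPM (25.3-fold higher, adjusted p = 0.00118). Serpinh1, the collagen chaperone, rose from 23 and 26.5 TPM to 384, 269 and 402 TPM (12.3-fold higher, adjusted p = 0.000234). They stand as well beside the transition regulators, Vim and the mesoderm genes above. The part of feeder cell RNA in these rises was not tested.

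Cholesterol synthesis rose almost as a unit. Of 22 genes for the enzymes and regulators of the pathway 19 were called higher against 20.6% of all genes tested, none was lower, and in all 22 every d3con library lay above both d0con libraries, as it did in 45.5% of all genes tested. The median log2 fold change was 1.98. Hmgcs1, which opens the pathway, rose from 68.6 and 73.5 TPM to 466, 611 and 661 TPM (7.05-fold higher, adjusted p = 0.00111). Msmo1, a sterol demethylating enzyme, rose from 95 and 107 TPM to 739, 756 and 910 TPM (log2 fold change 2.78 ± 0.15, SE, adjusted p = 5.27e-05), and Cyp51 rose from 23.3 and 24.2 TPM to 196, 195 and 257 TPM. The summed level of the list was 1088 and 1142 TPM in d0con and 4861, 5294 and 5849 TPM in d3con, with replicate 2 between the others. Insig1, the sterol sensor that restrains the pathway, rose from 15.2 and 19.6 TPM to 88.7, 71.5 and 78.9 TPM (adjusted p = 0.000273). Mvk and Ebp were among the members that did not pass the 2-fold limit, with log2 fold changes of 0.98 and 0.79. The call counts were 19 or 20 in the fits without 1 library. ES cell medium held fetal calf serum, a source of cholesterol. The differentiation medium listed no serum, but it listed the supplement AlbuMAX, whose lipids are not described. Medium and cell state cannot be told apart.

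Promoter windows are printed for Hmgcs1, Msmo1 and Insig1, the only changed members whose searched window held a core of the sterol response element. Only the first listed window of each gene was searched, and Dhcr7 had 3 windows and Pmvk 2. Genes of the pathway are textbook targets of the sterol-sensing factor SREBP, which acts with the factor NF-Y at CCAAT boxes. Capitals mark CCAAT and a core of the sterol response element, CACNCCA, on either strand. Of the 13 changed members with a RefSeq window, 12 held CCAAT, or 92.3%, where 38.8% of the windows of all genes tested did, and 3 held CACNCCA, or 23.1%, where 17.9% of all did. The windows, in build GRCm38.p6, are chr13:119690101-119690400 on the plus strand for Hmgcs1, chr8:64733529-64733828 on the minus strand for Msmo1 and chr5:28071162-28071461 on the plus strand for Insig1.
Hmgcs1: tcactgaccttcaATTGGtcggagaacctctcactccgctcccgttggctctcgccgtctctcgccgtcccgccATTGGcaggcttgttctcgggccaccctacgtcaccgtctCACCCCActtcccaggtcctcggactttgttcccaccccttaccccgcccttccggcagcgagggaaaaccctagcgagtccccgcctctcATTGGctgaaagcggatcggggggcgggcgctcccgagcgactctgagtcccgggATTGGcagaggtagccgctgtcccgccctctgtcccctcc
Msmo1: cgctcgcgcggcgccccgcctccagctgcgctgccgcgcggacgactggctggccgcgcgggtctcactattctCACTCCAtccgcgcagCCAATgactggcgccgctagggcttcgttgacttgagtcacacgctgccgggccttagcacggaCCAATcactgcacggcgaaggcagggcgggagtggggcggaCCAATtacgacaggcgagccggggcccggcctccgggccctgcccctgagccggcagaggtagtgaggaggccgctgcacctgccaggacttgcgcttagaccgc
Insig1: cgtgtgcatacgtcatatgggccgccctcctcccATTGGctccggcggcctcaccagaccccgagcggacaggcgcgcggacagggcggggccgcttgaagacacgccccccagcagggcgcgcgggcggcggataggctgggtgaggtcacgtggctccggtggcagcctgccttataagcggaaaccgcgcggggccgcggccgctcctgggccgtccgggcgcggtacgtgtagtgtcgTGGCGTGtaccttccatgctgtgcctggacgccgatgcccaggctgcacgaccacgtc
Both motifs were chosen with the rise of these genes known, and the shares are a description of letters in a window.

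**Figure D4:**
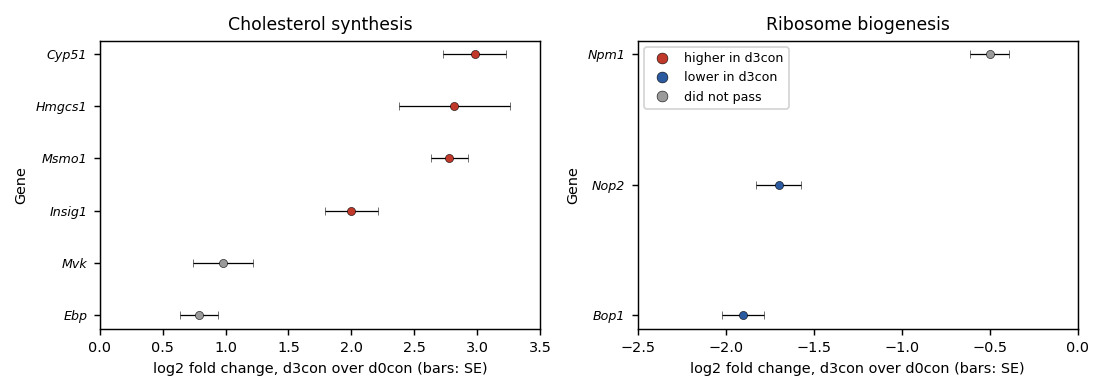
Log2 fold change in d3con over d0con with its SE (bars) for the genes of cholesterol synthesis (left) and ribosome biogenesis (right) that are named in the text, with genes on the vertical axis. The cholesterol genes shown lie above 0, with Msmo1 at 2.78, and Bop1, Nop2 and Npm1 lie below 0.

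Ribosome biogenesis declined. Of 21 factors for making ribosomes 12 were called lower, beside 14.6% of all genes tested, and none higher. The median was -1.04, and in 20 every d3con library lay below d0con, as in 29.2% of all genes tested. Bop1, which processes ribosomal RNA, fell from 250 and 272 TPM to 73, 84.5 and 84.9 TPM (adjusted p = 7.18e-05). Nop2, a ribosomal RNA methyltransferase, fell from 313 and 302 TPM to 110, 108 and 107 TPM (adjusted p = 0.000139). Npm1, the abundant nucleolar chaperone, did not pass, at 3238 and 3479 TPM against 2694, 2622 and 2825 TPM (log2 fold change -0.50). These shifts were small and even among replicates, and between 10 and 12 members were called without 1 library, but only 6 when edgeR tested against a 2-fold change. Myc, a known driver of these genes, measured 213 and 133 TPM against 65.4, 109 and 83.2 TPM and did not pass (adjusted p = 0.0657), while Mycl rose from 4.53 and 6.36 TPM to 81.1, 73 and 127 TPM (adjusted p = 0.00029).

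Of 21 genes of replication and mitosis 3 fell and 18 did not pass, a share near the 14.6% of all genes tested that fell. Ccne1, the cyclin E that ES cells hold at a high level, fell from 235 and 233 TPM to 33.4, 50 and 27.5 TPM (7.29-fold lower, adjusted p = 0.000231), and Ccnd3 fell from 439 and 445 TPM to 73.1, 111 and 76.5 TPM (adjusted p = 0.000222). Cdk1 and Top2a did not pass, with Top2a at 143 and 148 TPM against 130, 251 and 187 TPM. The inhibitor gene Cdkn1b rose from 3.35 and 2.6 TPM to 14.1, 10.1 and 14.2 TPM (adjusted p = 0.00084). Trp53, the p53 gene, fell from 877 and 786 TPM to 197, 230 and 233 TPM (4.37-fold lower, adjusted p = 5.85e-05). Of the other 14 genes of its list Mdm2, Bax and Phlda3 fell, Pmaip1 rose and the rest did not pass, Cdkn1a among them at 46 and 51.4 TPM against 62, 42.4 and 64 TPM. The call for Mdm2 was lost without d0con replicate 1 (adjusted p = 0.0574).

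Of 20 glycolysis genes 3 rose, 2 fell and 15 did not pass, beside 20.6% and 14.6% of all genes tested. Slc2a3, a high-affinity glucose transporter, rose from 487 and 576 TPM to 2350, 2565 and 3276 TPM (4.44-fold higher, adjusted p = 0.000389). Slc16a1, which carries lactate and pyruvate, rose from 57.6 and 67.3 TPM to 745, 386 and 1036 TPM (log2 fold change 3.33, adjusted p = 0.000433), and Emb, the chaperone of such carriers, rose from 91.8 and 125 TPM to 1793, 1316 and 2196 TPM (14.1-fold higher, adjusted p = 0.00122). The enzyme genes Ldha, Pkm and Aldoa were among the glycolysis genes that did not pass. The summed TPM of the list was highest in d3con replicate 2, at 40159 TPM against 24722 and 32368 TPM in the other d3con libraries and 19020 and 20355 TPM in d0con. None of 24 subunits of oxidative phosphorylation was called, although 9 of them had an adjusted p under 0.05 in edgeR with changes below the 2-fold limit, and 11 an unadjusted p under 0.05. DESeq2 called 0. In one-carbon metabolism Tdh fell with Mat2a, which makes the methyl donor and went from 658 and 699 TPM to 204, 148 and 199 TPM (4.24-fold lower, adjusted p = 0.000314), and with Shmt1, from 229 and 257 TPM to 67.4, 88.8 and 86.8 TPM (adjusted p = 0.000303).

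The machinery of DNA methylation and Polycomb changed mostly downward. Tet1 and Tet2, which oxidise methylated cytosine, fell from 53.5 and 46 TPM to 10.6, 15.7 and 13 TPM and from 32.2 and 22.2 TPM to 3.64, 4.8 and 5.12 TPM. Dnmt3b, the de novo methyltransferase of the epiblast, did not pass and measured 364, 343 and 400 TPM against 190 and 247 TPM (adjusted p = 0.193). Of 17 Polycomb subunits 6 fell, beside 14.6% of all genes tested. None of them rose, although 2 rose without d3con replicate 1. Eed, a core subunit of the complex that methylates histone H3, fell from 267 and 300 TPM to 61.6, 70.8 and 69.5 TPM (4.87-fold lower, adjusted p = 0.000515), and Jarid2 and Cbx7 fell 4.45-fold and 5.18-fold, while the catalytic subunit Ezh2 did not pass, at 57.1 and 71.2 TPM against 53.4, 68.2 and 72.9 TPM. Among 21 imprinted genes, which are read from 1 parental copy, 6 rose and 3 fell, beside 20.6% and 14.6% of all genes tested. Igf2, a fetal growth factor, rose from 1.36 and 2.7 TPM to 88, 74.4 and 90.8 TPM (adjusted p = 0.00206), Grb10 rose from 22.5 and 35.1 TPM to 833, 412 and 1323 TPM and Peg3 rose from 12.9 and 17.1 TPM to 218, 216 and 262 TPM. Of the 3 that fell, 0 were called without either d0con library or d3con replicate 3.

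Mest, an imprinted gene read from the paternal copy, differed between the clones on both days. It measured 57.4 TPM in d0con of clone C59 and 0.52 TPM in d0con of clone C63, and 199 and 184 TPM in d3con of C59 against 1.2 TPM in d3con of C63. Within each clone the day 3 value was above the day 0 value. In a search for genes at least 4-fold apart between the clones on both days and at 5 TPM or more in every library of the higher clone, Mest was the only gene higher in C59. The 1 gene higher in C63 was the small nucleolar RNA row Snord37, at 23.9 and 23.3 TPM against 0 in the other 3 libraries. Each clone had 1 library at day 0, so this has no test. Differences between the clones at day 0 and at day 3 correlated at -0.01 over genes, which are not independent replicates.

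Replicate 2 of d3con stood apart in some lists as a whole and not in others. The mean of log2(TPM plus 1) over the definitive endoderm list was 6.57, 5.55 and 6.56 in d3con, lowest in replicate 2. Over the primitive streak list this mean was 4.56, 5.48 and 4.70, highest in replicate 2. Over the cholesterol list it was 7.13, 7.18 and 7.36. The summed level of the core pluripotency factors was 832, 2195 and 1109 TPM in d3con, highest in replicate 2, but that of the naive factors was 743, 559 and 646 TPM, lowest there. Beside T, Pou5f1, Nanog and Wnt8a, the kinase gene Pim2 measured 45.4, 480 and 47.3 TPM in d3con and the apelin receptor gene Aplnr measured 6.79, 77.4 and 16.8 TPM. The call for Aplnr was lost without d0con replicate 1 (adjusted p = 0.0712) or 2 (0.0619). Dkk1, Sfrp5, Foxa1, Foxa3 and Hnf4a were lowest there, as were the plasma protein genes Proc and Ambp, which measured 24.6, 1.47 and 20.5 TPM and 13.5, 0.47 and 6.51 TPM. Both calls were lost without a d0con library, with adjusted p = 0.0504 and 0.0571 for Proc and 0.0641 and 0.06 for Ambp. Cer1, Fgf5, Eomes and the cholesterol genes did not show this split. Among called genes with a mean of at least 20 TPM in d3con, the highest library was a median of 1.38 times the lowest, and 47 of 1503 genes were at least 4-fold apart. Spink3, a secreted protease inhibitor gene and the widest of them, measured 1289, 70.9 and 631 TPM. Since C63 had 1 library at each day, clone and culture cannot be told apart.

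**Figure D5:**
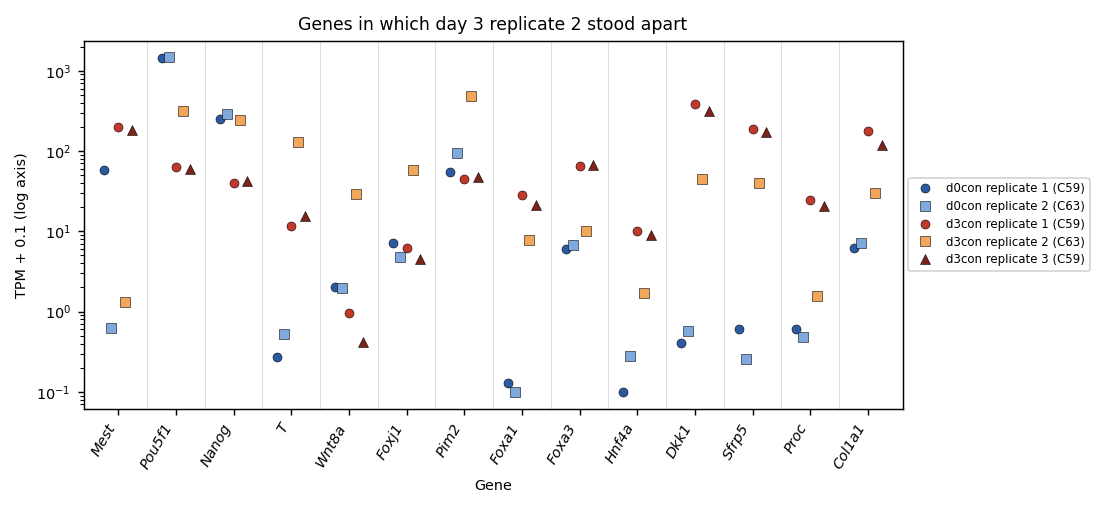
TPM plus 0.1 (log axis) of 14 genes in the 5 libraries, with the clones in the legend. Mest is low in both C63 libraries, T and Nanog are high in d3con replicate 2 (131 and 246 TPM), and Dkk1, Hnf4a, Proc and Col1a1 are low in it.

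Secretory genes of liver and gut were present only in part at day 3. For comparison, 20.6% of all genes tested rose and 14.6% fell. Of 20 plasma protein and apolipoprotein genes 11 could be tested, 6 rose and 2 fell, but 1 rose without either d0con library and 3 without d3con replicate 1. Rbp4, the retinol carrier, rose from 0.49 and 0.12 TPM to 22, 9.52 and 18.5 TPM (adjusted p = 0.00414), and Apoe, already at 675 and 640 TPM, did not pass at 1450, 712 and 1182 TPM. Alb and Fga, albumin and a fibrinogen chain of mature liver, were at 0 TPM in all 5 libraries. Of 20 genes of protein folding in the endoplasmic reticulum 18 did not pass, Hspa5 among them at 616 and 507 TPM against 553, 657 and 647 TPM. The cytosolic chaperones Hspa8 and Hsp90aa1 fell, from 4854 and 4450 TPM to 1515, 1887 and 1543 TPM (3.26-fold lower, adjusted p = 0.00033) and from 2231 and 2476 TPM to 734, 972 and 702 TPM (3.38-fold lower, adjusted p = 0.000349).

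Other large changes lay outside the lists. Car4, a carbonic anhydrase on the cell surface, rose from 10.4 and 10 TPM to 2113, 805 and 2154 TPM (144-fold higher, adjusted p = 0.000892), and Gpc3, a glypican that binds growth factors, rose from 11.6 and 19.7 TPM to 1190, 734 and 1486 TPM (63-fold higher, adjusted p = 0.000234). Samd3, Prdm6 and Kcnj5 were at 0 TPM in d0con and reached 63.4, 33.5 and 78.5 TPM, 21, 12.1 and 24.8 TPM, and 14.9, 3.83 and 13.5 TPM, at least 798-fold, 361-fold and 353-fold higher. Prdm6 encodes a chromatin factor and Kcnj5 a potassium channel. Pilrb2 and Gm5771 were also at 0 TPM in d0con, and were at least 317-fold and 308-fold higher in d3con. Tuba1a, an alpha tubulin, rose 2.22-fold to 1814, 1498 and 2139 TPM (adjusted p = 0.0135, and 0.0997 and 0.0529 without d0con replicate 1 or 2). Among the falls, Gpx1, which removes hydrogen peroxide, went from 2575 and 2575 TPM to 755, 630 and 715 TPM (4.25-fold lower, adjusted p = 6.34e-05), Prdx1, a peroxidase, fell 2.39-fold and the histone gene H2afz fell 2.17-fold, with a log2 fold change of -0.95 without d0con replicate 2. Rps4l, a copy close in sequence to another ribosomal protein gene and therefore uncertain, fell from 1655 and 1459 TPM to 184, 289 and 174 TPM. Saa3, an acute phase gene, was at 0 counts in all d3con libraries from 3.02 and 7.54 TPM, at least 30.2-fold lower. Gm9112 was likewise at 0 counts in d3con, at least 28.5-fold lower, and Zfp936, a zinc finger gene, fell 156-fold.

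Promoter motifs of genes that rose and fell were compared as a description, with no test. Over the 10363 tested genes with a RefSeq window, 74.6% of those tested, TGTTTAC stood in 2.38% of windows of genes that rose and 2.21% of genes that fell, the T-box motif TCACACC in 2.95% and 3.82%, the GATA motif AGATAAG in 1.95% and 2.08%, the octamer motif ATGCAAA in 3.1% and 4.56%, and the TATA box TATAAAA in 2.71% and 2.95%, on either strand. The shares over all genes tested were 2.42%, 3.38%, 1.71%, 3.39% and 2.45%. These windows cover the start of each gene and no distal element.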

How the data were processed

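RNA was made into libraries with the SMARTer ultra low input v4 and MicroPlex kits per the labels. The authors aligned reads with STAR to mm10 (GRCm38) and quantified genes with RSEM, whose versions are not given in the sources used here, and deposited expected counts and TPM per gene for 24054 genes. RSEM splits reads shared by similar genes, so near-identical copies are uncertain. Whether counting used strand is not given in the sources used here.

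Expected counts were rounded to whole numbers. Genes with at least 1 CPM in at least 2 libraries were kept. A list member near 0 in 1 group could pass this filter only through the group where it was high. Its direction was then set in part by the filter. edgeR 4.0.16 in R 4.3.3 was fitted with TMM scaling and the quasi-likelihood test on 10 libraries, which were d0con, d3con and the Foxa2 knockout groups of both days. The knockout libraries entered the count filter, the scaling and the estimate of the spread, but not the contrast. With the 5 control libraries alone 13246 genes were tested, against 13899 in the main fit. P-values were adjusted by Benjamini-Hochberg over all genes tested, and SE is the log2 fold change divided by the square root of F. Where a group had 0 counts, the fold bound used a floor of 3 counts. TPM was used for levels, not for tests.

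Named genes were the 8 largest changes in each direction by log2 fold change and by TPM, members of lineage lists, and the 4 largest changes in each direction of other lists. Other genes, such as ligands and receptors that did not pass and the genes that set d3con replicate 2 apart, were named after their values were seen. Members, lists and motifs were chosen with earlier results of these data known. The script was tested on simulated data. Alternatives were other scaling, count filters, DESeq2 1.42.0, a test against a 2-fold change, a stricter adjusted p, the 5 control libraries alone, a replicate block and leaving out each library. Replicates 1 and 2 of both days pair by clone in the study's sample names, and deviations of these pairs from their group means correlated at 0.03 and -0.01 over genes. The other 4 libraries of the series were not used here, and some list members are counted but not reported by name.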

Additional observations from a re-analysis of the deposited data

How the results depend on the processing

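The main counts were 2863 genes higher and 2027 lower. DESeq2 on the 5 libraries against a 2-fold change called 1392 higher and 902 lower, and edgeR against a 2-fold change called 1553 and 1040. These tests ask for more than the main one by construction. Leaving out 1 library gave 1862 to 2793 higher and 1551 to 2115 lower, with the lowest higher counts without d0con replicate 1 (1869) or 2 (1862), where the lone d0con library was assumed to vary like the other groups. With the replicate number as a block 2885 genes were higher and 2125 lower, and with the clone as a block 2769 and 2020. Of the named genes, Foxa3 lost its call under the clone block, Nanog gained one under it, and Tbx6 gained one under both blocks, and no other call changed. Other scaling, count filters, DESeq2 on 10 libraries, the 5 libraries alone and an adjusted p under 0.01 moved neither count by more than 1.5 times. No named gene that was called changed direction under any setting, and 135 of 164 called named genes were called under every setting that tested them. Some settings left named genes untested. Of 212 named genes tested in the main fit, 13 were untested with a mean count of at least 50. With the 5 control libraries alone 5 were untested, in edgeR and in DESeq2 against a 2-fold change alike. Smaller list counts moved without 1 library: formative genes lower 3 to 6, Wnt ligands and receptors lower 1 to 3, basement membrane genes lower 1 to 3 and extraembryonic endoderm genes lower 0 to 2. With 2 libraries at day 0, genes near the threshold depend on either of them. Read length (75 bases in d3con replicate 1, 50 in the others) was not varied.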

Other observations

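Of the genes tested on chromosome X, 29.3% were called higher in d3con, where the autosomes ranged from 16.3% to 23.5%. The median log2 fold change on chromosome X was 0.38. The cause was not tested.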
